A study of Mus musculus with 13 samples.

Results

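Peroxisomes are small organelles bounded by a single membrane that shorten very-long-chain and branched fatty acids, detoxify the hydrogen peroxide this produces and carry out the first steps of ether lipid synthesis. Peroxins, the products of the *Pex* genes, insert proteins into the peroxisomal membrane, import enzymes from the cytosol and help the organelle to elongate and divide. In white adipose tissue, peroxisomes multiply during adipocyte differentiation and work beside mitochondria in fatty acid oxidation. The 32 genes described here are a list of peroxins, peroxisomal oxidation enzymes, transporters and ether lipid enzymes, matched by Ensembl gene identifier. All 32 were found among the 33618 identifiers counted, and all 32 passed the filter on low counts.

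The study measured mRNA by bulk sequencing of whole parametrial white adipose tissue (pmWAT), a visceral fat depot of female mice. The control group, *Lmna* fl/fl, comprised 7 mice with *loxP* sites in both copies of *Lmna*, which encodes the nuclear envelope proteins lamin A and lamin C. The knockout group, *Lmna* iADKO, comprised 6 mice with the same floxed alleles and 1 copy of *Adipoq*-CreERT2, a tamoxifen-inducible recombinase driven by the adiponectin promoter, which is active in adipocytes. Mice of both groups received tamoxifen at 50 mg/kg on 5 consecutive days when 12 to 14 weeks old, and tissue was collected 2 weeks posttamoxifen. The controls carried no Cre transgene, so effects of Cre itself and of *Lmna* deletion cannot be told apart. By design, the other cells of the tissue keep *Lmna*.

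Each of the 13 libraries held 18854223 to 19776491 reads counted on genes. *Lmna*, the targeted gene, was at 74.7 to 98.5 CPM (counts scaled to the normalized library size) in the libraries labelled fl/fl and at 80.1 to 109 CPM in those labelled iADKO. Its log2 fold change was 0.19 (SE 0.079, adjusted p = 0.0785), so whole-gene counts did not show the deletion, and the floxed exons could not be counted apart. Genotypes are therefore those of the labels. Adipocyte markers were abundant in every library, with a summed level of 19770 to 31240 CPM in fl/fl and 12460 to 21480 CPM in iADKO. One library of each genotype stood nearest the other genotype. These were fl/fl replicate 5, with the lowest adipocyte and highest macrophage marker sums of its group, and iADKO replicate 6, with the highest adipocyte and lowest macrophage sums of its group.

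Most peroxisomal transcripts were lower in the libraries labelled iADKO, 26 of 32 with normalization for library composition (TMM) and 19 of 32, with 3 higher, when scaled by library size only, which moved the median log2 fold change of all genes from 0.03 to 0.24 and called 7.62% of all genes lower and 44.2% higher. With TMM, 26 genes were lower past an adjusted p of 0.05, 1 was higher and 5 did not pass the test, whereas 16.3% of all 16753 genes tested were lower and 14.1% were higher. The median log2 fold change of the 32 genes was -0.54, against 0.03 for all genes. The lower genes ranged from *Pxmp2*, a channel protein of the peroxisomal membrane, at -1.34 to *Pex26*, an anchor of the import machinery, at -0.19. The higher gene was *Far1*, which makes the fatty alcohols used for ether lipids, at 0.26. Summed over the 32 genes, the level was 4000 to 6111 CPM in fl/fl with a median of 5148, and 2965 to 4212 CPM in iADKO with a median of 3388. The sums of the genotypes overlapped through fl/fl replicate 5 and iADKO replicate 6.

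**Figure D1:**
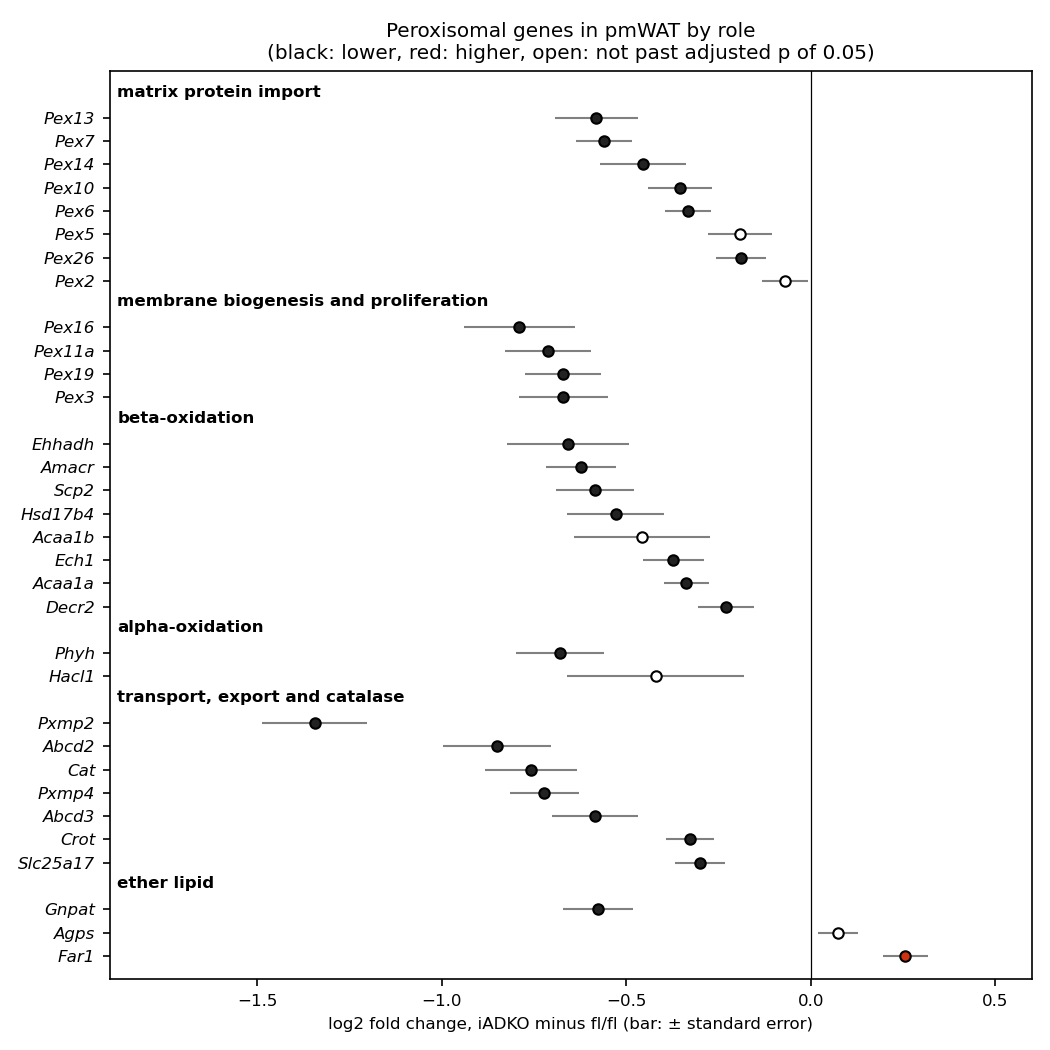
Log2 fold change (iADKO minus fl/fl) of each of the 32 peroxisomal genes with its standard error, by role. Points left of 0 are lower in iADKO; 26 black points passed the test as lower, the red point is *Far1*, and 5 open points did not pass. Without scaling for library composition, *Pex2*, *Pex5* and *Pex26* lie right of 0.

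Fewer adipocytes and less RNA per adipocyte cannot be told apart in bulk tissue. All 12 adipocyte markers fell, with a median log2 fold change of -0.96, and 8 of 12 macrophage markers rose, with a median of 0.68. No marker of either list was at 0 in any library, and the part of these cells in the result was not tested. The macrophage sum was 2453 to 6105 CPM in fl/fl and 3690 to 6379 CPM in iADKO. With the mean adipocyte marker level of each library as a covariate, none of the 32 genes passed edgeR's test as lower or higher, 1 had an unadjusted p under 0.05, and the median log2 fold change was -0.01. That fit called only 2 genes lower and 4 higher in the whole table. The covariate itself differed by genotype, at 9.85 to 10.73 in fl/fl and 9.21 to 9.95 in iADKO. The fit therefore cannot tell a genotype effect on the members from a difference in this level. With the macrophage marker level as a covariate, *Pxmp2*, *Pxmp4* and *Pex7* were lower and no member was higher, and 1.33% of all genes were lower and 1.01% higher. This level also differed by genotype, at 6.9 to 7.9 in fl/fl and 7.3 to 8.1 in iADKO. Of the other marker lists, 4 of 5 tested brown adipocyte, 2 of 7 endothelial and 1 of 5 mural genes were lower. Of all genes, 16.3% were lower. The lower mural gene was *Cspg4* at -0.87, whereas *Myh11*, *Acta2* and *Tagln* were at 0.99, 0.62 and 0.54 and did not pass. Higher were 4 of 7 T cell, 2 of 5 B cell and 3 of 5 proliferation genes, against 14.1% of all genes. No adipose progenitor, mesothelial or skeletal muscle marker passed. The part of the cells of these lists in the result was not tested.

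The libraries differed in a graded way. Averaged over the 32 genes, the log2 difference from the fl/fl mean was between -0.06 and 0.21 in 6 fl/fl libraries and -0.29 in fl/fl replicate 5. It was between -0.67 and -0.49 in 5 iADKO libraries and -0.19 in iADKO replicate 6. The latter library was above fl/fl replicate 5 in 23 of the 32 genes. Among fl/fl, replicate 5 was the lowest library for 26 of 32 genes, against 25.9% of all genes. Among iADKO, replicate 6 was the highest for 25 of 32, against 27.3% of all genes. For genes called lower, these shares were 92.3% and 88.5% of the members, and 67.6% and 66.9% of all genes. Both libraries were singled out by the member mean, so the counts for the members partly follow from that choice. The percentage of counts on mitochondrially encoded genes was 2.84% in fl/fl replicate 5 and 3.98% in iADKO replicate 6, against 3.90% to 5.06% in the other fl/fl and 2.39% to 3.06% in the other iADKO libraries.

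**Figure D2:**
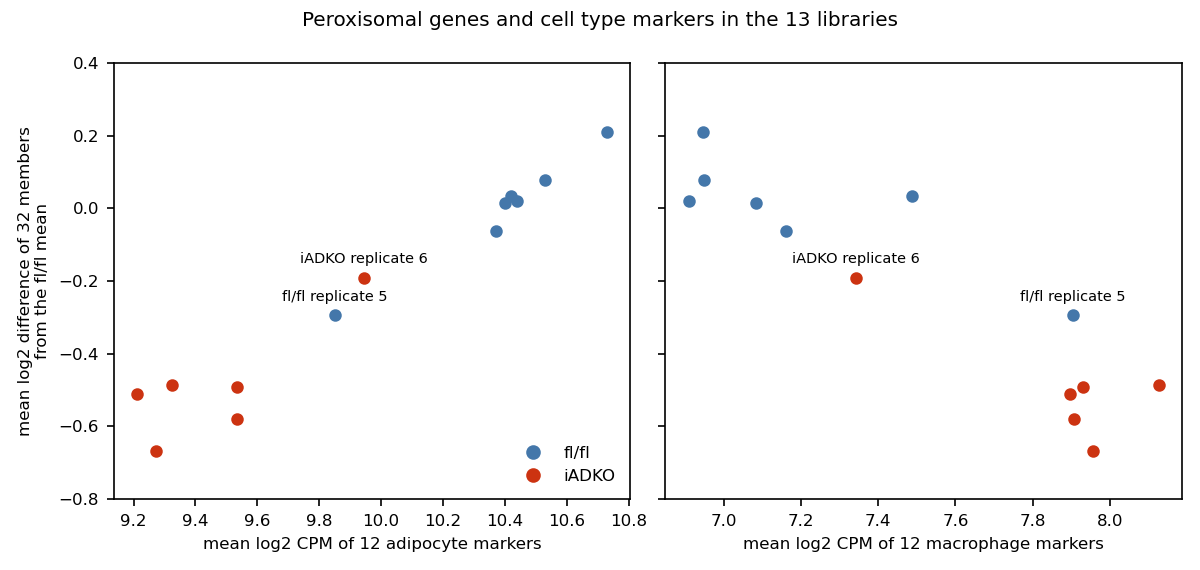
Each point is 1 library. The vertical axis is the mean log2 difference of the 32 peroxisomal genes from the fl/fl mean, and the horizontal axes are the mean log2 CPM of 12 adipocyte markers (left) and 12 macrophage markers (right). The labelled libraries, fl/fl replicate 5 and iADKO replicate 6, lie at -0.29 and -0.19, between the other libraries of the 2 genotypes.

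With all libraries, 7 genes had no overlap between genotypes, all lower in iADKO, where 3.93% of all genes had no overlap in that direction and 2.71% had none in the other. Without fl/fl replicate 5 and iADKO replicate 6, 25 of 32 had no overlap, against 14.3% of all genes. Of the genes called lower with all libraries, 96.2% of the 26 members and 78.3% of all 2737 had none. The 2 libraries were chosen after seeing the data, by the mean of the members themselves. Part of the gain for the members is therefore built into that choice. With both left out, the adjusted p was under 0.05 for 29 lower members and 1 higher member. Of all genes, 23.3% were then lower and 19.6% higher. The animal numbers in the library names fall into 4 series, of which only those named B and C here hold both genotypes. Within series C, with 3 fl/fl and 2 iADKO libraries, 27 members were lower and 1 higher, with a median log2 fold change of -0.82, and 15.4% of all genes were lower and 12.6% higher. Within series B, which holds both libraries nearest the other genotype among its 2 fl/fl and 2 iADKO, no member passed edgeR's test in either direction, 1 had an unadjusted p under 0.05, 27 had a negative log2 fold change and the median was -0.17. That fit called 0 of 16890 genes lower and 0 higher, so the lack of calls there is not particular to the members.

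**Figure D3:**
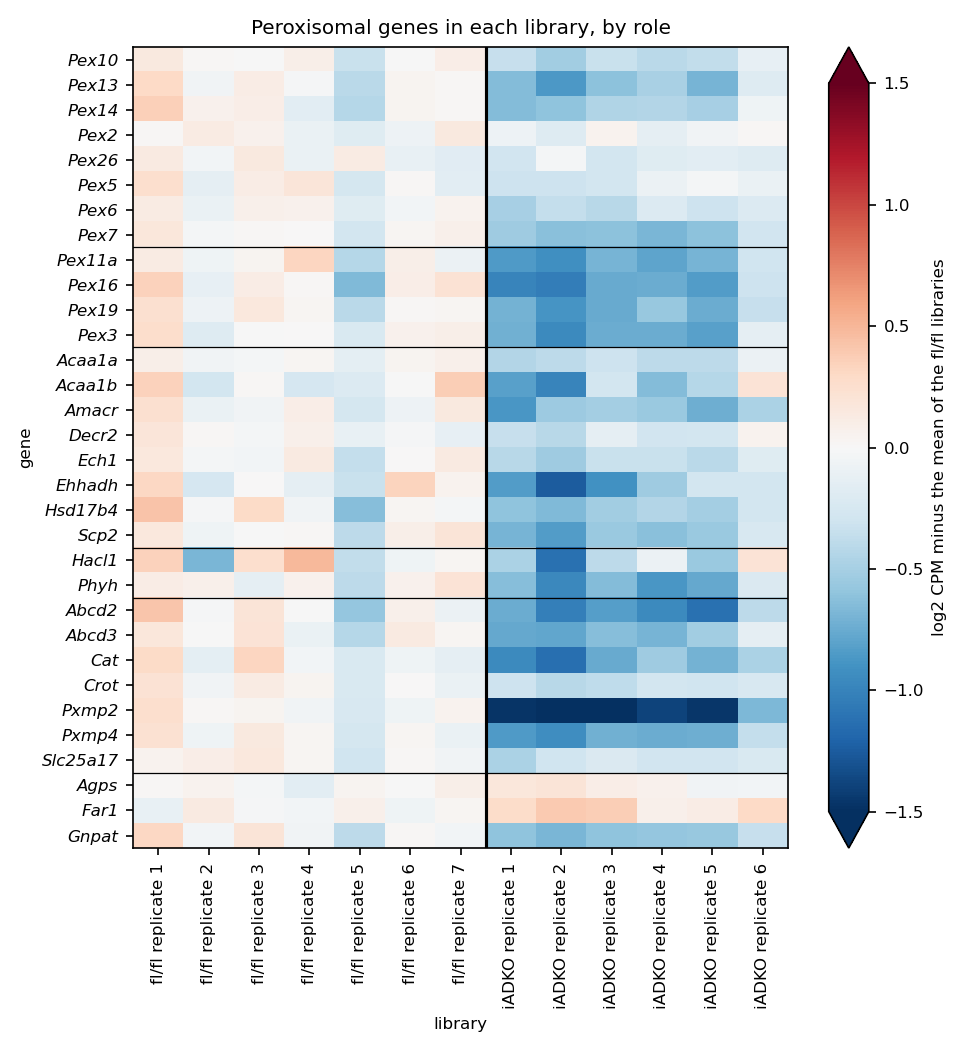
Rows are the 32 peroxisomal genes by role and columns are the 13 libraries, with fl/fl left of the black line. Colour gives log2 CPM minus the mean of the fl/fl libraries. Blue fills most of the 5 iADKO columns, iADKO replicate 6 is paler, fl/fl replicate 5 is the bluest fl/fl column, and *Agps* and *Far1* are red or near white in iADKO.

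Per kilobase of annotated exon, *Cat* was the most abundant of the 32 transcripts. Its level in fl/fl was 275.7 ± 43.9 CPM per kilobase (SD, n = 7), followed by *Scp2* at 86.7 ± 10.96, *Abcd2* at 75.2 ± 14.99, *Ech1* at 63.8 ± 7.49 and *Hsd17b4* at 62.9 ± 13.5. *Scp2* and *Abcd2* differed by less than 1 SD of *Abcd2*, and *Ech1* and *Hsd17b4* by less than 1 SD of either. Among these 5, *Cat* alone stood clear of the next by more than the SDs. At the low end were *Pex10* at 2.81 ± 0.292, *Amacr* at 2.12 ± 0.255 and *Hacl1* at 0.288 ± 0.0815 CPM per kilobase. In iADKO, *Cat* was at 163 ± 27.5 CPM per kilobase (SD, n = 6) and *Scp2* at 57.8 ± 8.34.

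The membrane peroxins, which build the peroxisomal membrane, were all lower, 4 of 4 with every scaling tried. *Pex3*, *Pex16* and *Pex19* act together to insert membrane proteins, and *Pex11a* promotes elongation and division of the organelle. *Pex16* was at 89.0 CPM in the lowest fl/fl library, 150.9 in the median and 179.7 in the highest, and at 69.0, 81.4 and 113.5 CPM in the corresponding iADKO libraries. Only fl/fl replicate 5 lay within the iADKO range, and only iADKO replicate 6 within the fl/fl range. Its log2 fold change was -0.79 (SE 0.15, adjusted p = 0.00221). *Pex11a* was at 69.0 CPM (lowest), 95.8 (median) and 116.1 (highest) in fl/fl and at 49.2, 55.3 and 75.2 in iADKO, with the same 2 libraries crossing. The log2 fold change of *Pex11a* was -0.71 (SE 0.12, adjusted p = 0.000858). *Pex19*, a chaperone of membrane proteins, and *Pex3*, its docking site, both changed by -0.67 on the log2 scale (SE 0.10 and 0.12).

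Of 8 genes for matrix protein import, 6 were lower. *Pex5* and *Pex7* encode the cytosolic receptors for the 2 kinds of targeting signal, *Pex13* and *Pex14* the docking complex, *Pex2* and *Pex10* ubiquitin ligase subunits that recycle the receptor, and *Pex6* an ATPase held at the membrane by *Pex26*. Of the 2 receptors, *Pex7* passed and *Pex5* did not, and the difference between their changes was not tested. Within series C, *Pex5* was also lower, at -0.40 (adjusted p = 0.0321 in edgeR's test). *Pex7* was at 31.4 CPM in the lowest fl/fl library, 38.4 in the median and 42.6 in the highest, and at 23.6, 24.8 and 31.0 CPM in iADKO. No iADKO library reached the fl/fl range. The log2 fold change of *Pex7* was -0.56 (SE 0.076, adjusted p = 0.000321). *Pex5* was at 113.7 to 162.9 CPM in fl/fl and 110.5 to 133.6 CPM in iADKO, with a log2 fold change of -0.19 that did not pass (SE 0.087, adjusted p = 0.107). As a description within each library, the log2 ratio of *Pex7* to *Pex5* was -2.02 to -1.62 in fl/fl and -2.45 to -2.04 in iADKO. These ranges did not overlap but nearly touched, at -2.023 and -2.038. Other pairs without overlap were *Pxmp2* with *Pxmp4* and *Far1* with *Gnpat*. Ratios of *Pex10* to *Pex2*, *Abcd2* to *Abcd3*, *Acaa1b* to *Acaa1a*, *Ehhadh* to *Hsd17b4*, *Cat* to *Ehhadh* and *Agps* to *Gnpat* overlapped. The share of all gene pairs without overlap was not computed.

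Among the docking and recycling factors, *Pex13* was at 96.2 CPM in the lowest fl/fl library, 128.7 in the median and 156.5 in the highest, and at 69.7, 81.7 and 111.2 CPM in iADKO. The ranges overlapped in 1 library of each genotype. Its log2 fold change was -0.58 (SE 0.11, adjusted p = 0.00225), and that of *Pex14* was -0.46 (SE 0.12). *Pex6* was at 87.6, 102.6 and 108.2 CPM in fl/fl (lowest, median, highest) and at 70.1, 78.4 and 85.9 CPM in iADKO. These ranges did not touch, although the log2 fold change was modest at -0.33 (SE 0.063, adjusted p = 0.00201). *Pex26* changed by -0.19 (SE 0.068, adjusted p = 0.0475) and passed in only 4 of 13 fits that each left out 1 library. *Pex10* changed by -0.35 (SE 0.087), whereas its partner *Pex2* had a log2 fold change of -0.07 that did not pass (SE 0.062, adjusted p = 0.41). With scaling by library size only, 3 genes of this group were lower, *Pex2* was higher at 0.13, and *Pex5* and *Pex26* were at 0.02 and 0.01. That scaling called 7.62% of all genes lower and 44.2% higher. With the series of animal numbers as a block, *Pex13*, *Pex7* and *Pex6* stayed lower, and *Pex14*, *Pex10* and *Pex26* lost the call (adjusted p = 0.108, 0.082 and 0.0775).

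All 7 genes for transport proteins and catalase were lower, 5 of them with scaling by library size only. *Pxmp2* lets small metabolites cross the peroxisomal membrane. It was at 30.0 CPM in the lowest fl/fl library, 36.0 in the median and 42.1 in the highest, and at 11.1, 12.8 and 22.2 CPM in iADKO. Every iADKO library was below every fl/fl library, and iADKO replicate 6 was the highest of its group by a wide margin. The log2 fold change was -1.34 (SE 0.14, adjusted p = 0.000151), the only one among the 32 genes more negative than the adipocyte marker median of -0.96. *Pxmp4*, another membrane protein, was at 100.6, 122.8 and 140.7 CPM in fl/fl and 62.9, 72.1 and 93.6 CPM in iADKO (lowest, median, highest). Its groups did not overlap either, and its log2 fold change was -0.72 (SE 0.094, adjusted p = 0.000281). Within libraries, the log2 ratio of *Pxmp2* to *Pxmp4* was -1.87 to -1.62 in fl/fl and -2.60 to -2.08 in iADKO.

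*Abcd2* and *Abcd3* encode transporters that bring fatty acyl-CoA into peroxisomes. *Abcd2* was at 410.8 CPM (lowest), 610.7 (median) and 819.9 (highest) in fl/fl and at 282.4, 330.2 and 465.6 CPM in iADKO. The lowest fl/fl library, replicate 5, lay below the highest iADKO library, replicate 6. The log2 fold change of *Abcd2* was -0.85 (SE 0.15, adjusted p = 0.00116), and that of *Abcd3* was -0.58 (SE 0.12), which did not pass with the series block (adjusted p = 0.0521). *Cat* encodes catalase, which breaks down hydrogen peroxide. It was at 854.7, 961 and 1257 CPM in fl/fl and at 456.4, 601.3 and 720.2 CPM in iADKO (lowest, median, highest), without overlap. The log2 fold change of *Cat* was -0.76 (SE 0.13, adjusted p = 0.000899).

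*Crot* attaches shortened fatty acids to carnitine for export to mitochondria, and *Slc25a17* carries cofactors across the membrane. *Crot* was at 65.0, 76.8 and 88.4 CPM in fl/fl and at 57.2, 61.6 and 64.6 CPM in iADKO (lowest, median, highest). The highest iADKO library was just below the lowest fl/fl library. The log2 fold changes were -0.33 (SE 0.065, adjusted p = 0.0025) for *Crot* and -0.30 (SE 0.068, adjusted p = 0.00529) for *Slc25a17*, and neither passed with scaling by library size only.

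**Figure D4:**
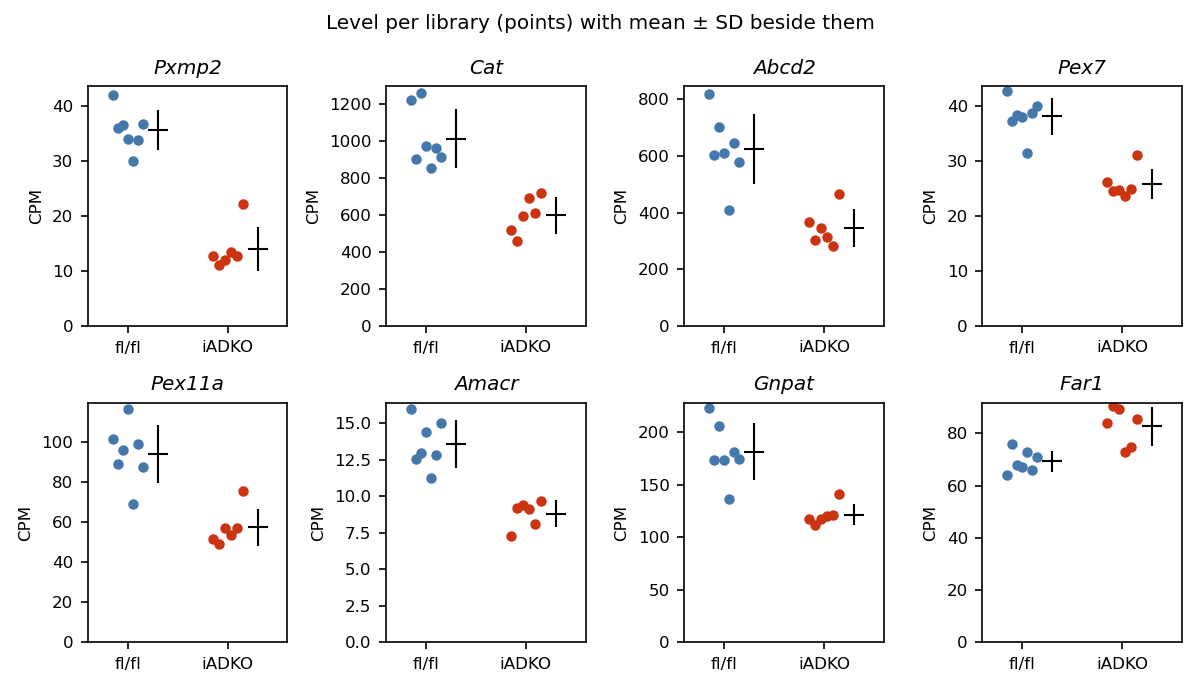
TMM-normalized CPM of 8 peroxisomal genes; each point is 1 library, and the bar beside each group is its mean ± SD (n = 7 fl/fl, n = 6 iADKO). *Pxmp2*, *Cat*, *Pex7* and *Amacr* show no overlap, *Abcd2*, *Pex11a* and *Gnpat* overlap through 1 library of each genotype, and *Far1* is higher in iADKO.

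Of the 8 beta-oxidation genes, 7 were lower, 5 of them with scaling by library size only. With the series of animal numbers as a block, *Acaa1a*, *Amacr* and *Scp2* stayed lower, and *Ehhadh*, *Hsd17b4*, *Ech1* and *Decr2* lost the call (adjusted p = 0.0698, 0.0882, 0.0622 and 0.0809). *Ehhadh* and *Hsd17b4* encode the 2 bifunctional enzymes that hydrate and dehydrogenate acyl-CoA, *Acaa1a*, *Acaa1b* and *Scp2* the thiolases that release the shortened chain, and *Amacr* a racemase that prepares branched chains. *Ehhadh* was at 61.2, 78.1 and 98.1 CPM in fl/fl and at 32.6, 48.3 and 64.2 CPM in iADKO (lowest, median, highest). The ranges overlapped at their edges, and the log2 fold change was -0.66 (SE 0.17, adjusted p = 0.00982). *Amacr* was at 11.2, 12.9 and 16.0 CPM in fl/fl and at 7.30, 9.15 and 9.67 CPM in iADKO. Its ranges did not overlap, and its log2 fold change was -0.62 (SE 0.095, adjusted p = 0.000582).

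*Scp2* changed by -0.59 (SE 0.11), *Hsd17b4* by -0.53 (SE 0.13) and *Acaa1a* by -0.34 (SE 0.062) on the log2 scale. *Ech1* and *Decr2*, auxiliary enzymes for unsaturated chains, changed by -0.37 (SE 0.083) and -0.23 (SE 0.076, adjusted p = 0.0351), and *Decr2* passed in only 4 of 13 fits that left out 1 library. *Acaa1b* was at 68.4 to 107.7 CPM in fl/fl and 41.7 to 96.2 CPM in iADKO, and its log2 fold change of -0.46 did not pass (SE 0.18, adjusted p = 0.0746). *Acaa1a* and *Acaa1b* are close paralogs. Of 100-base windows of their transcripts, 7.44% and 11.6% had an identical copy on either strand of another gene. For *Acaa1a* the other genes were *Acaa1b* and *Myd88*, and for *Acaa1b* they were *Acaa1a* and *Dlec1*. *Myd88* and *Dlec1* overlap them on the opposite strand, so the share between the paralogs alone is not given. Reads could be split among these genes. For *Scp2* the share was 23.2%, with processed pseudogenes among the copies.

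For alpha-oxidation, which removes 1 carbon from branched chains such as phytanic acid, *Phyh* and *Hacl1* encode successive enzymes. *Phyh* was at 92.4 CPM (lowest), 126.9 (median) and 140.5 (highest) in fl/fl and at 61.9, 74.2 and 104.5 CPM in iADKO. The ranges crossed in 1 library of each genotype, and the log2 fold change was -0.68 (SE 0.12, adjusted p = 0.00135). *Hacl1* was scarce, at 1.04, 1.78 and 2.47 CPM in fl/fl and at 0.746, 1.26 and 2.01 CPM in iADKO, or 16 to 46 reads. The ranges overlapped widely, and its log2 fold change of -0.42 did not pass (SE 0.24, adjusted p = 0.197). Identical 100-base windows in other genes covered 45.3% of *Hacl1*, so its counts are uncertain.

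The 3 ether lipid enzymes did not move together. *Gnpat* catalyses the first acylation of the glycerol backbone, *Agps* exchanges the acyl chain for a fatty alcohol, and *Far1* supplies that alcohol. *Gnpat* was at 136.6 CPM in the lowest fl/fl library, 174.7 in the median and 222.4 in the highest, and at 111.4, 118.7 and 140.9 CPM in iADKO. Its ranges overlapped through fl/fl replicate 5 and iADKO replicate 6, and the log2 fold change was -0.58 (SE 0.095, adjusted p = 0.000856). *Far1* was at 64.0, 68.1 and 76.0 CPM in fl/fl and at 72.8, 84.6 and 90.5 CPM in iADKO (lowest, median, highest). Of the 6 iADKO libraries, 4 were above every fl/fl library. The log2 fold change of *Far1* was 0.26 (SE 0.061, adjusted p = 0.00712), and it passed in all 13 fits that left out 1 library. With the series of animal numbers as a block it did not pass (adjusted p = 0.0583), at a log2 fold change of 0.26. That fit called 7.17% of all genes lower and 4.68% higher.

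*Agps* was at 50.0 to 59.4 CPM in fl/fl and 54.1 to 64.0 CPM in iADKO, with a log2 fold change of 0.07 that did not pass (SE 0.054, adjusted p = 0.313). It did pass as higher with scaling by library size only, as did 44.2% of all genes. Within libraries, the log2 ratio of *Far1* to *Gnpat* was -1.80 to -0.91 in fl/fl and -0.72 to -0.30 in iADKO, with no overlap, whereas that of *Agps* to *Gnpat* was -1.97 to -1.25 and -1.38 to -0.80, with overlap.

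Other genes of ether lipid metabolism, listed apart from the members, were lower in 4 of 7 cases and higher in none. The largest difference was in *Agmo*, which cleaves ether bonds, with a log2 fold change of -0.99 (SE 0.14, adjusted p = 0.000387). *Pla2g6*, a phospholipase, changed by -0.69 (SE 0.091), *Dhrs7b*, which reduces the product of *Agps*, by -0.63 (SE 0.12), and *Cept1*, which adds the head group, by -0.16 (SE 0.047). With edgeR at an unadjusted p under 0.05, likewise 4 were lower and none higher, where 3560 of all 16753 genes were lower and 3585 higher. With scaling by library size only, 1 of the 7 was higher, against 44.2% of all genes.

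Of 40 further peroxisomal genes, 29 were lower and 0 were higher in edgeR's test, with a median log2 fold change of -0.34. At an unadjusted p under 0.05, 33 were lower and 0 were higher, against 3560 lower and 3585 higher of all 16753 genes. The largest log2 fold changes were those of *Slc27a2*, an acyl-CoA synthetase, at -1.98 (SE 0.71, adjusted p = 0.0499), *Acox2*, an oxidase for branched chains, at -1.52 (SE 0.37), *Acot4*, a thioesterase, at -1.22 (SE 0.25), and *Nudt7*, a CoA diphosphatase, at -1.14 (SE 0.15). *Slc27a2* and *Acox2* were scarce, at 1.80 and 1.77 CPM on average in fl/fl and 0.449 and 0.611 CPM in iADKO. With scaling by library size only, 14 of the 40 were lower and 3 were higher, against 7.62% and 44.2% of all genes.

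Mitochondrial beta-oxidation genes were also mostly lower. Of 18 tested, 14 were lower and 1 was higher, against 16.3% lower and 14.1% higher of all genes. Their median log2 fold change was -0.59. Without adjustment, 16 were lower and 1 was higher at a p under 0.05 in edgeR's test. The most negative were *Decr1* at -0.78 (SE 0.14), *Echs1* at -0.75 (SE 0.12), *Cpt2* at -0.73 (SE 0.11) and *Hadh* at -0.67 (SE 0.12). *Cpt1a*, the liver-type carnitine palmitoyltransferase, was higher at 0.36 (SE 0.11, adjusted p = 0.0294), and lost this call in 5 of 13 fits that left out 1 library. The difference between the peroxisomal and mitochondrial lists was not tested. Lysosomal genes, listed as another organelle for reference, were lower in 0 and higher in 5 of 16. At an unadjusted p under 0.05, 1 was lower and 7 were higher, against 3560 lower and 3585 higher of all 16753 genes.

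**Figure D5:**
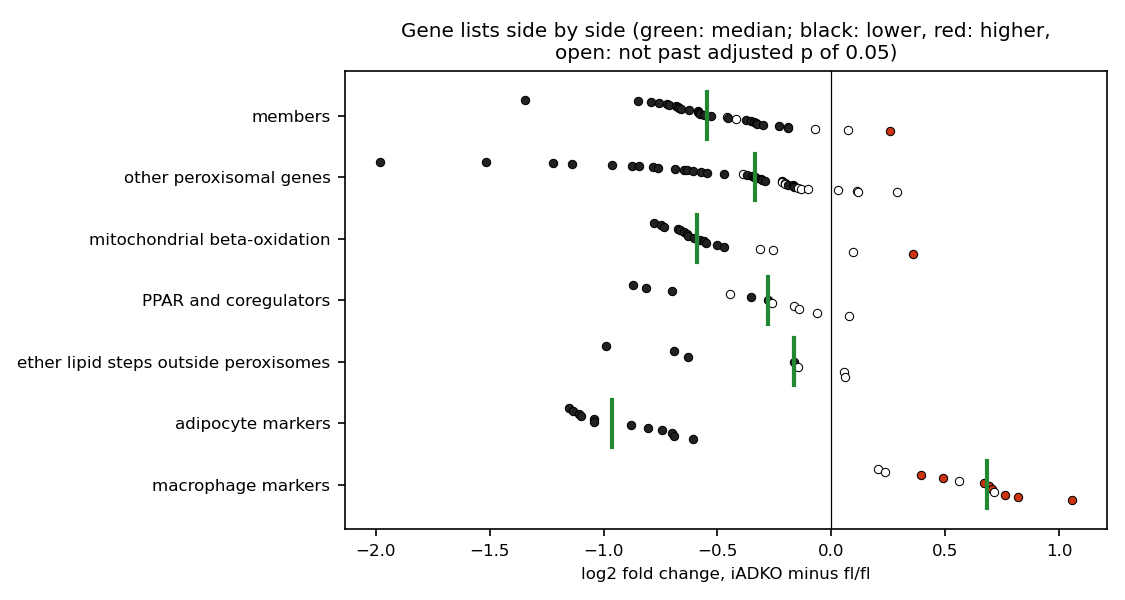
Each point is the log2 fold change (iADKO minus fl/fl) of 1 gene, and green bars are list medians. The members, other peroxisomal genes and mitochondrial beta-oxidation genes lie mostly left of 0 with medians of -0.54, -0.34 and -0.59, adipocyte markers further left at -0.96, and macrophage markers right of 0 at 0.68.

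Peroxisome proliferator-activated receptors (PPARs) are nuclear receptors that bind with RXR to direct repeats of AGGTCA spaced by 1 base, and peroxisomal oxidation genes are classical targets of *Ppara*. Of 11 genes for PPARs and coregulators, 5 were lower and 0 were higher in edgeR's test. With an unadjusted p under 0.05, 7 were lower and 0 higher, against 3560 lower and 3585 higher of all 16753 genes. *Lpin1*, a coactivator and phosphatidate phosphatase, changed by -0.87 (SE 0.16), *Ppara* by -0.81 (SE 0.23), *Pparg*, the adipogenic receptor, by -0.70 (SE 0.15) and *Rxra* by -0.35 (SE 0.078). *Ppara* was at 10.2 to 16.3 CPM in fl/fl and 4.90 to 14.1 CPM in iADKO, with overlap. *Pparg*, which is also among the adipocyte markers, was at 145.9 to 296.4 and 110.8 to 188.1 CPM. With scaling by library size only, 3 of the 11 were lower and 2 were higher, against 7.62% and 44.2% of all genes.

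The 2000 bases upstream of the start of each gene's canonical transcript (GENCODE vM39 on GRCm39) were searched on both strands for this repeat. None of the 32 members held AGGTCA repeated exactly after 1 base of any kind, which occurred in 0.333% of 14133 tested protein-coding genes. The same repeat with AGGNCA at both places, which includes the exact one, occurred in 3.71% of those genes and in 1 member, *Acaa1b*. Its match lay on the opposite strand, 955 bases upstream, and is shown with those found upstream of *Crat*, another peroxisomal gene, and *Cpt2*, because they were the only matches among the peroxisomal and mitochondrial lists. Capitals mark the match, and each line reads in the direction of the gene, all 3 of which lie on the minus strand.
*Acaa1b*, chr9:118987084-118987136: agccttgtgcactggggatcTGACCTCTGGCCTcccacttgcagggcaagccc
*Crat*, chr2:30307810-30307862: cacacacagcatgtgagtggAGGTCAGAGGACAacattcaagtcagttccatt
*Cpt2*, chr4:107782411-107782463: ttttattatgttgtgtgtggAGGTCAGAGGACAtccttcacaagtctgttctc
The 3 genes had log2 fold changes of -0.46 (not past the threshold), -0.76 and -0.73. A match is a run of letters and not a measured binding site.

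*Far1*, the member that was higher, is shown by the 250 bases upstream of its canonical start, because it was the only member to pass as higher. Capitals mark GGGCGG or its reverse complement, the GC box bound by Sp family factors, searched after seeing the data.
*Far1*, chr7:113112590-113112839, plus strand: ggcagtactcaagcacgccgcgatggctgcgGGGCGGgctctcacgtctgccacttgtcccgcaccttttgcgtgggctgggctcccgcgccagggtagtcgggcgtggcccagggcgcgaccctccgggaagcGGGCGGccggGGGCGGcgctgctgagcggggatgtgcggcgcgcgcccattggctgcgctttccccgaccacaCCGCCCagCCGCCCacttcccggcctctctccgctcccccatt
GGGCGG was found in 46.9% of the members' stretches and in 47.5% of those of all genes. *Far1* held 5 matches, as did *Pxmp2*, the most lowered member, and *Pex5*, which did not pass, held 4. Any link between the GC box and the change of a member was not tested.

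Exons of 21 members overlap those of another annotated gene, 20 of them on the opposite strand and 4 on the same strand. The library kit was strand-specific, but the strand setting of the counting was not given in the sources used here, so reads from opposite genes may be mixed. *Myd88*, opposite *Acaa1a*, was higher at 0.29 (SE 0.098, adjusted p = 0.0361) where *Acaa1a* was lower. *Pus10*, opposite *Pex13*, was lower at -0.34 (SE 0.079), and *Wdr93*, opposite *Pex11a* by 7 bases, at -0.81 (SE 0.14). *Btd*, opposite *Hacl1*, was at 65.9 CPM on average in fl/fl, far above *Hacl1* itself at 1.80 CPM, and was lower at -0.49 (SE 0.058).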

How the data were processed

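Bulk RNA-Seq of pmWAT was analysed for 7 fl/fl and 6 iADKO libraries, each with its own animal number in the library name. The authors deposited raw counts per Ensembl gene for 33618 identifiers, without normalization, and log2 values made from them with DESeq2's regularized log (rlog). The submitters' processing notes name FastQC 0.12.1, STAR 2.7.11a, mm39 and DESeq2. The counting tool, the annotation and the strand setting were not given in the sources used here.

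In R 4.3.3, counts were filtered with filterByExpr of edgeR 4.0.16 (16753 genes left), normalized by TMM and compared with the robust quasi-likelihood test. Adjustment over all genes followed Benjamini and Hochberg, with a threshold of 0.05. SE is the log2 fold change divided by the root of the F statistic. TMM factors enter all CPM values, and a prior count of 2 was added before taking log2. Alternatives used DESeq2 1.42.0, limma 3.58.1 on the rlog values, other filters, scalings, blocks, covariates and subsets of libraries. Members and gene lists were chosen with earlier results of these data known. All members are named, with library values for those without overlap, the 2 largest changes of each role and any that rose, and up to 4 genes of the other pathway lists. Genes opposite members and *Crat* fall outside this rule and were chosen after their values were seen. The Python scripts took starts and sequences from GRCm39 and GENCODE vM39, in which 33184 identifiers were found. Protein sequences were not analysed here. Counting intervals are not given, since the spread between mice includes counting error.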

Additional observations from a re-analysis of the deposited data

Results flagged for a closer look

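In 10 of 64 groups of libraries (32 genes, 2 genotypes), 1 library lay far from the others by Dixon's test. Chance flags about 1 in 20 groups, and genes of the same library are not independent. In 7 of the 10, iADKO replicate 6 was far above the other iADKO libraries. Its levels were 73.6 CPM for *Pex14*, 56.7 for *Pex3*, 75.2 for *Pex11a*, 135.7 for *Acaa1a*, 22.2 for *Pxmp2*, 93.6 for *Pxmp4* and 140.9 for *Gnpat*, where the next highest iADKO library was at 56.8, 37.9, 57.2, 116.5, 13.5, 72.8 and 120.9 CPM. This library also had the highest adipocyte and lowest macrophage marker sums among iADKO, whose part in the result was not tested. In 2 groups, fl/fl replicate 5 was far below the other fl/fl libraries, at 10.02 CPM for *Pex10* and 182.5 CPM for *Ech1*, with the next lowest at 12.6 and 228.7 CPM. *Slc25a17* was lowest in iADKO replicate 1, at 45.7 CPM, with the next lowest at 51.6 CPM.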

How the results depend on the processing

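The count of 26 members lower and 1 higher came to 26 and 1 with DESeq2's size factors in edgeR, 27 and 1 with DESeq2's Wald test, 25 and 1 without a filter on low counts, 26 and 1 with at least 10 counts in every sample, and 27 and 1 with limma on the rlog values. In that order, these fits called 17.4%, 19.1%, 7.09%, 17.7% and 17.4% of all genes tested lower. They called 13%, 15%, 4.83%, 16.2% and 13.4% higher. With a replicate block (fl/fl replicate 7 left out) 24 were lower and 1 higher, against 14.7% and 14.3% of all genes. Same-numbered libraries correlated between -0.03 and 0.22 and 2 of 6 pairs were each other's best match, so the numbers were not taken as pairs. With the animal series as a block, 18 were lower and 0 higher (1 at an unadjusted p under 0.05), where 7.17% of all genes were lower and 4.68% higher, other peroxisomal genes lower were 14, PPAR genes lower 2, and mitochondrial genes higher 0. The median log2 fold change of the members was then -0.50.

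Scaling by library size only moved the median of all genes to 0.24 and the share of lower among all called genes from 53.6% to 14.7%. It called 7.62% of all genes lower and 44.2% higher. Members lower were then 19 and higher 3, other peroxisomal genes 14 and 3, PPAR genes 3 and 2, other ether lipid genes higher 1, and *Lmna* was at 0.40. *Pex5*, *Pex2* and *Pex26* turned positive, at 0.0159, 0.13 and 0.0137.

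With the macrophage score, 3 members were lower (16 at an unadjusted p under 0.05) and 0 higher, with 3 other peroxisomal, 0 mitochondrial (9 unadjusted), 0 PPAR and 2 other ether lipid genes lower and 0 mitochondrial genes higher. That fit called 1.33% of all genes lower and 1.01% higher. *Pex5*, *Pex2*, *Hacl1* and *Agps* changed sign to 0.0307, 0.00962, 0.0143 and -0.00677. With the adipocyte score, 0 genes of each list were lower or higher, and the signs turned for *Pex5* (0.0911), *Pex13* (0.10), *Pex14* (0.22), *Pex2* (0.15), *Pex10* (0.10), *Pex16* (0.12), *Hsd17b4* (0.25), *Acaa1b* (0.30), *Ech1* (0.0663), *Decr2* (0.12), *Hacl1* (0.52), *Abcd2* (0.12) and *Abcd3* (0.0647), none past the threshold. Within series B, 0 genes of each list passed, and *Pex14* (0.0473), *Pex2* (0.0786) and *Acaa1b* (0.0706) were positive. The cause of these changes was not tested. The series B comparison had 4 libraries.

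Leaving out 1 library gave 24 to 26 members lower and 1 higher, against 13.1% to 19.7% of all genes lower and 10.6% to 19.9% higher. Mitochondrial genes higher were 0 to 1, the 0 without fl/fl replicate 1 or iADKO replicate 1, 3, 4 or 5, and also 0 without a filter on low counts and within series C. *Lmna* passed without fl/fl replicate 1 (0.23) or iADKO replicate 6 (0.24) and without both fl/fl replicate 5 and iADKO replicate 6 (0.19), where 1 other peroxisomal gene was higher. *Pex26* and *Decr2* passed in 4 of 13 such fits, *Pex5* and *Acaa1b* in 1, and the other 24 lower members in all 13. *Hacl1*, at 16 to 46 reads, had the fewest reads and the largest SE of the members.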
